A study of Homo sapiens with 16 samples.

Results

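The BCL2 family decides at the outer mitochondrial membrane whether a cell enters apoptosis, and 10 of its genes were followed here among the 17738 genes of the table: the BH3-only genes BMF, BBC3, PMAIP1, BCL2L11 and BID, the survival genes MCL1, BCL2L1 and BCL2, and the effector genes BAX and BAK1. They were chosen by name, with earlier results of these data known. All 10 passed the filter on low values, which asked for 10 or more normalised reads in 2 or more libraries and which 16714 genes met. RNA sequencing covered 16 libraries of H1, a human embryonic stem cell line, here of wild-type genotype. Before treatment the cells were kept in E8, a defined medium that contains FGF2, insulin and TGFb. For 24 h they then received E7, the same medium without TGFb, alone or with 1 of 3 ligands of the TGFb family: TGFb (1.74 ng/mL), Activin A (100 ng/mL) or NODAL (100 ng/mL). In each of the 4 resulting media, cells with 3 mM 2-deoxyglucose (2DG), a glucose analogue that blocks glycolysis, stand beside cells without it, in 8 groups of 2 libraries. All groups are of a single cell line.

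BAX and BAK1 form pores in the outer mitochondrial membrane that release cytochrome c, which with APAF1 activates the caspases. The survival proteins BCL2, BCL-XL (from BCL2L1) and MCL1 hold the effectors and the BH3-only proteins in check, and the BH3-only proteins, each made or activated in response to a kind of stress, bind the survival proteins or engage the effectors directly. Human pluripotent stem cells are known to stand close to the threshold of mitochondrial apoptosis. Transcript level is only a part of this control, since MCL1 and NOXA (from PMAIP1) proteins turn over quickly, BID is activated by cleavage, and BAX and BAK1 act by changing shape and place.

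The stretches upstream of 4 members are printed as examples of genes that responded in different ways: BMF fell and BCL2L1 and BBC3 rose with 2DG, and PMAIP1 was higher with Activin A. BCL2, which also rose with 2DG, is among the members not shown. They are RefSeq sequences of build GRCh38.p14, 5′ to 3′ on the gene's strand, ending just before the first annotated exon, with capitals for any motif found.
BMF, chr15:40108893-40109129, minus strand: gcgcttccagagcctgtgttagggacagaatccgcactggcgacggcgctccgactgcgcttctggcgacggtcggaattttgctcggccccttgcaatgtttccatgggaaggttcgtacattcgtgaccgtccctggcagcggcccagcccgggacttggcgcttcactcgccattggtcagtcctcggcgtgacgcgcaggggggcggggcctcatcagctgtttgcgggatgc
BCL2L1, chr20:31723990-31724213, minus strand: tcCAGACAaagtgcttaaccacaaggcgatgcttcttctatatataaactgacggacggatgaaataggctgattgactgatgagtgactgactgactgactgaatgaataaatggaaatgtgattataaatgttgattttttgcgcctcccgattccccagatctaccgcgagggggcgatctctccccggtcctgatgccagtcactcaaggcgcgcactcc
BBC3, chr19:47232767-47232917, minus strand: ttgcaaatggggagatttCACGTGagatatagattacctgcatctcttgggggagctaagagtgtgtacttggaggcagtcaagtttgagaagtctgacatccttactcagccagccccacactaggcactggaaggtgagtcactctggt
PMAIP1, chr18:59899746-59899947, plus strand: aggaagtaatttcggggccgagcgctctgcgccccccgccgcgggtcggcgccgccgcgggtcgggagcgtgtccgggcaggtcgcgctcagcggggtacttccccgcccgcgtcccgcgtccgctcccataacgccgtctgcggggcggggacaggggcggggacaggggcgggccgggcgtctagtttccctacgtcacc
The motifs searched, on both strands in the 250 bases before each start, were the CHOP-ATF4 letters TGATGNAAT and TTGCATCA, the FOXO letters TGTTTAC, the E-box CACGTG, the SMAD letters GTCTAGAC and CAGACA, and the E2F letters TTTCCCGC and TTTGGCGC. These occur in 0.888%, 0.772%, 2.98%, 6.34%, 0.182%, 13.6%, 1.39% and 0.55%, in that order, of 35116 windows of this length. Positions count from the RefSeq start of a window, which for BCL2L1 and BBC3 lies downstream of the end of the printed stretch, since GENCODE places their first exon further upstream. Capitals mark CAGACA in BCL2L1, at -248, and CACGTG in BBC3, at -232. Elsewhere in the 15 windows of 9 members, FOXO letters lie at -223 in BCL2L11, and BAX holds 4 E-boxes, at -138, -93, -45 and -14. BID holds an E-box and CAGACA in some of its windows. None of these letters is in the windows of BMF or PMAIP1. A match describes letters, not binding, and the lack of one says nothing about a factor.

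On build hg38, as placed by GENCODE 29, BMF lies at chr15:40087890-40108892, BBC3 at chr19:47220822-47232766, PMAIP1 at chr18:59899948-59904306, BCL2L11 at chr2:111119378-111168447 and BID at chr22:17734138-17774770. MCL1 lies at chr1:150574551-150579738, BCL2L1 at chr20:31664452-31723989, BCL2 at chr18:63123346-63320128, BAX at chr19:48954815-48961798 and BAK1 at chr6:33572547-33580293. All 10 are protein coding, and each value counts reads over the whole gene, so isoforms such as those of BCL2L1, BCL2L11 and BAX, some with opposing activity, are pooled. Exons of 5 members overlap a gene on the other strand (BMF with BMF-AS1, BBC3 with MIR3190 or MIR3191, BCL2L11 with MIR4435-2HG, BCL2L1 with ABALON, BAK1 with GGNBP1). MCL1 overlaps ADAMTSL4-AS1. The strand setting of the counting is not given in the sources used here, so reads in such overlaps cannot be told apart. Of these partners, MIR4435-2HG ranged from 14.1 to 159 normalised reads and ABALON from 2.81 to 11.5, against lowest values of 371 for BCL2L11 and 480.2 for BCL2L1.

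Recovered reads per library ranged from 14600479 to 17630329. All 9 pluripotency markers listed, POU5F1, SOX2 and NANOG among them, were in the table, with a summed level of 134601 to 166537 normalised reads. Of the markers of other cells, 4 of 8 fibroblast genes summed to 2765 to 5244 normalised reads, mostly THY1, which pluripotent cells also express. The other lists, by genes in the table and summed range, were 6 of 8 for mesendoderm (87.0 to 1785), 4 of 5 for neuroectoderm (7588 to 11876, mostly NES), 3 of 6 for trophoblast and amnion (57.2 to 156) and 1 of 4 for blood (3.8 to 15.2). Listed genes outside the table, among them COL3A1, DCN, LUM, POSTN, SOX17, CDX2, PTPRC and HBB, were not analysed here. The replicates of E7 with Activin A stood apart from each other. Per gene, their chi-square was 53.8, against 1.58 to 14.6 in the other groups, and the log2 difference between them rose with transcript length (Spearman's rho over genes 0.462). In E7 alone, with a chi-square of 10.1, the difference between replicates fell with length (rho -0.347). In the remaining groups rho lay between -0.212 and 0.211. In bulk RNA, fewer cells of a type and less RNA per cell cannot be told apart.

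Per kilobase of exon, and as medians over the 16 libraries, PMAIP1 at 2053 and MCL1 at 1620 normalised reads per kb stood above the other members. These 2 transcripts ranked above 98.6% and 98.1% of the 17317 genes with a length. BAX followed at 491, then BAK1 at 249, BCL2L1 at 224, BID at 118, BCL2L11 at 83.4, BMF at 62.9, BBC3 at 55.4 and BCL2 at 14.2. The ranges over libraries of PMAIP1 (1711 to 2909) and MCL1 (1244 to 1781) overlapped, as did those of BAK1 (219 to 329) and BCL2L1 (145 to 308), and those of BCL2L11, BMF and BBC3. BID (98.0 to 161) overlapped with BCL2L1 above it and with BCL2L11 and BMF below it. BAX (448 to 721) and BCL2 (9.49 to 18.5) overlapped with no other member. Measured over the longest transcript instead, BCL2L1 came before BAK1, and BBC3 before BMF. BCL2 was thus the least abundant of the survival transcripts and MCL1 the most, and among the BH3-only transcripts PMAIP1 stood far above the rest.

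**Figure D1:**
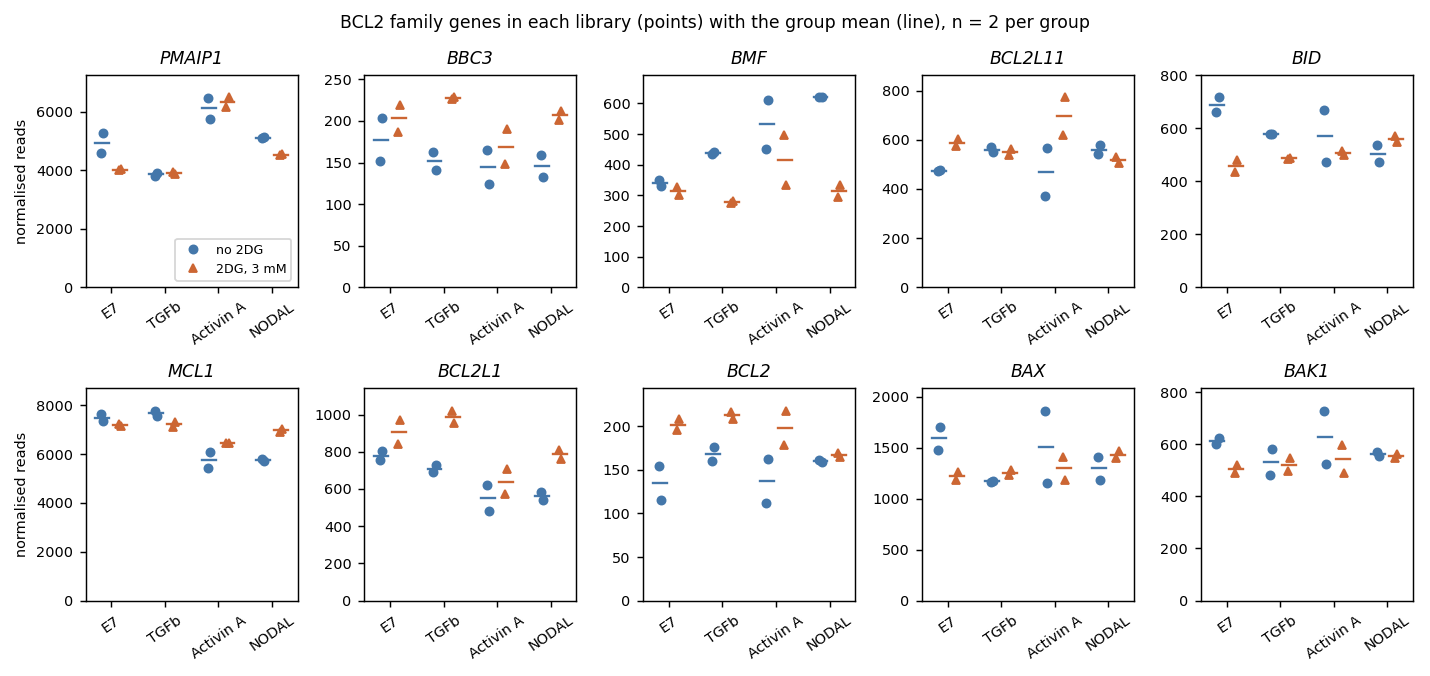
Normalised read count of each of the 10 genes (vertical axes from 0, 1 per gene) in the 4 media, without 2DG (circles) and with 2DG at 3 mM (triangles), with each library as a point and the group mean as a line. BMF with 2DG lies below BMF without it in the TGFb and NODAL media, BCL2L1 and BCL2 have higher means with 2DG in all 4 media, and the replicates in Activin A medium lie widest apart for several genes.

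Averaged over the 4 media, 2DG lowered BMF and BID and raised BBC3, BCL2L1 and BCL2. Calls among the BH3-only genes thus went in both directions, and the 2 calls among the survival genes were both rises. The test was limma's on log2 of the value plus 1 over all 16 libraries, with p adjusted by Benjamini-Hochberg over 16714 genes and a call at an adjusted p under 0.05. It called 3 of 10 members higher and 2 lower, beside 19.2% of all tested genes called higher and 19.4% lower. The median log2 change of the members was -0.00248, and that of all genes -0.000609. Within single media fewer members were called, with 3 in E7, 2 in TGFb medium, 1 in NODAL medium and 0 in Activin A medium. The background there was 14.6% of genes higher and 14.8% lower in E7, 5.47% and 4.37% in TGFb medium, 3.11% and 2.76% in NODAL medium, and 1.7% in either direction in Activin A medium. In that last medium, 2 members had an unadjusted p under 0.05 in limma, beside 20.2% of all genes. There edgeR's quasi-likelihood test called 0 members and DESeq2 called 1. The libraries with and without 2DG did not overlap for 9 members in E7, 7 in TGFb medium, 3 in Activin A medium and 8 in NODAL medium, beside 68.9%, 65.8%, 33.9% and 62.7% of all genes.

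BMF encodes a BH3-only protein tied to the cytoskeleton and known for responding to loss of attachment. Without 2DG it measured 351 and 331 normalised reads in E7, 434 and 441 with TGFb, 452 and 612 with Activin A, and 620.1 in both libraries with NODAL. With 2DG it measured 326 and 301, 275 and 281, 499 and 334, and 296 and 334, in the same order of media. The groups did not overlap in E7, TGFb or NODAL medium, and overlapped in Activin A medium. The 4 means with 2DG thus lay closer together (278 to 416) than those without (341 to 620.1). The log2 change with 2DG was -0.53 (SE 0.09, adjusted p = 0.00036) on average, -0.98 (SE 0.17, adjusted p = 0.0051) in NODAL medium and -0.65 (SE 0.17, adjusted p = 0.029) in TGFb medium. In E7 it was -0.12 (adjusted p = 0.62) and in Activin A medium -0.37 (adjusted p = 0.25), neither called. Leaving out any 1 of the 4 libraries of the TGFb comparison ended its call (adjusted p 0.13 to 0.16), as did leaving out replicate 2 of NODAL (0.058) or replicate 1 of NODAL with 2DG (0.085) for the NODAL comparison. In Activin A medium, leaving out replicate 1 of the 2DG group gave -0.65 (adjusted p = 0.028) and leaving out replicate 2 gave -0.08 (adjusted p = 0.93).

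BBC3 encodes PUMA, a BH3-only protein that binds all the survival proteins. Its values without 2DG were 151 and 203 in E7, 163 and 141 with TGFb, 165 and 124 with Activin A, and 158 and 133 with NODAL. With 2DG they were 187 and 220, 226 and 228, 148 and 190, and 201 and 212. The 2 groups were apart in TGFb and NODAL medium and overlapped in E7 and Activin A medium. The average rose by 0.38 (SE 0.09, adjusted p = 0.0064), while no single medium passed, the nearest being TGFb medium at 0.58 (SE 0.19, adjusted p = 0.07). That value passed without either library of E7 with Activin A (adjusted p 0.022 and 0.023).

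PMAIP1 encodes NOXA, which binds MCL1 and promotes its breakdown. In E7 it measured 4604 and 5271 without 2DG and 4005 and 4045 with it, and the groups were apart. The other pairs were 3825 and 3927 against 3958 and 3866 with TGFb, 6482 and 5762 against 6174 and 6501 with Activin A, and 5094 and 5148 against 4512 and 4574 with NODAL. Only the change in E7 was called, at -0.29 (SE 0.09, adjusted p = 0.024), and the average was -0.10 (SE 0.04, adjusted p = 0.087). The E7 call ended without replicate 2 of E7 (-0.19, adjusted p = 0.24) or either library of E7 with 2DG (0.11 and 0.084), and with a correction for transcript length it was -0.09 (adjusted p = 0.39). Over all genes the response to 2DG in E7 rose with exonic length (Spearman's rho 0.308), and the part of this trend in the PMAIP1 value was not tested beyond that correction. The average passed, at -0.12, without replicate 1 of E7 (adjusted p = 0.042) or replicate 2 of E7 with Activin A (0.013).

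BCL2L11 encodes BIM, a strong activator of BAX and BAK1. It measured 475 in both E7 libraries against 573 and 601 with 2DG, 570 and 549 against 536 and 561 with TGFb, 371 and 566 against 618 and 773 with Activin A, and 541 and 577 against 529 and 504 with NODAL. The 2DG values were the higher ones in E7 and Activin A medium, overlapped in TGFb medium and were the lower ones in NODAL medium. No change was called, the largest being 0.59 in Activin A medium (SE 0.16, adjusted p = 0.083). Without replicate 2 of E7 with Activin A it was 0.90 (adjusted p = 0.00018), and without replicate 1 of the 2DG group 0.75 (adjusted p = 0.027), while without the other library of each group it was 0.29 (adjusted p = 0.3) and 0.43 (0.8). The 0.31 in E7 (adjusted p = 0.16) passed without either library of E7 with Activin A (0.025). BID, which links death receptors to mitochondria once caspase 8 has cut it, measured 662 and 718 in E7 and 436 and 482 with 2DG there. Its other pairs were 577 and 579 against 486 and 488 with TGFb, 669.8 and 474 against 514 and 499 with Activin A, and 537 and 474 against 572 and 549.6 with NODAL. BID was lower with 2DG in E7 and TGFb medium without overlap, and in NODAL medium its 2DG values were the higher ones. It fell by 0.59 in E7 (SE 0.14, adjusted p = 0.0072) and by 0.21 on average (SE 0.07, adjusted p = 0.028). The average was no longer called (adjusted p 0.053 to 0.074) without replicate 2 of E7, replicate 1 of E7 with 2DG, any library of TGFb or TGFb with 2DG, replicate 2 of Activin A with 2DG, replicate 1 of NODAL or replicate 2 of NODAL with 2DG, 9 libraries left out in turn, and the E7 call ended without replicate 2 of E7 (0.071) or replicate 1 of E7 with 2DG (0.066).

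Of the survival genes, BCL2L1 had values of 755 and 804 in E7, 692 and 727 with TGFb, 623 and 480.2 with Activin A, and 582 and 543 with NODAL. With 2DG these were 843 and 973, 1021 and 953, 571 and 705, and 812 and 760.1. The groups were apart in all media except Activin A. BCL2L1 rose by 0.35 on average (SE 0.07, adjusted p = 0.0013) and by 0.47 in TGFb medium (SE 0.13, adjusted p = 0.04). In NODAL medium the change was 0.48 (SE 0.13, adjusted p = 0.051), so the 2 media differed in their call and hardly in size. The TGFb call ended when any library of the E7, TGFb, TGFb with 2DG, NODAL or NODAL with 2DG groups was left out (adjusted p 0.052 to 0.23) and with the replicate number as a block (0.056). The NODAL value passed in 9 of 14 alternatives, edgeR, DESeq2 and the length correction among them, and without any 1 of the 4 Activin A libraries. In E7 the change was 0.22 (adjusted p = 0.24), and with the length correction it passed at 0.33 (adjusted p = 0.037).

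BCL2, the family's founding member, measured 154 and 116 in E7 and 195 and 209 with 2DG. Its other pairs were 160.5 and 176 against 217 and 209 with TGFb, 112 and 163 against 179 and 218 with Activin A, and 162 and 159 against 169.8 and 165 with NODAL. In each medium both 2DG libraries were above both others, though in NODAL medium by little. The average rise was 0.38 (SE 0.09, adjusted p = 0.005) and the rise in E7 0.59 (SE 0.18, adjusted p = 0.028), against 0.06 in NODAL medium (adjusted p = 0.89). The E7 call ended without replicate 2 of E7 (0.39, adjusted p = 0.26), without either library of E7 with 2DG (0.086 and 0.12), and with the length correction (0.27, adjusted p = 0.14). In Activin A medium the 0.55 (adjusted p = 0.14) passed without replicate 2 of the group lacking 2DG (0.82, adjusted p = 0.0031) and was 0.28 (adjusted p = 0.53) without replicate 1. MCL1, a short-lived survival protein, measured 7636 and 7366 in E7 against 7249 and 7161, 7785 and 7559 against 7132 and 7302 with TGFb, 5435 and 6073 against 6445 and 6450 with Activin A, and 5796 and 5732 against 6917 and 7033 with NODAL. Its 2DG values were thus the lower ones in E7 and TGFb medium and the higher ones in Activin A and NODAL medium. None was called, the largest being 0.28 in NODAL medium (SE 0.08, adjusted p = 0.054), which passed without any 1 of the 4 Activin A libraries (0.0068 to 0.042).

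The effectors gave no call with 2DG. BAX measured 1479 and 1708 in E7 against 1188 and 1259 with 2DG, 1169 and 1175 against 1231 and 1283 with TGFb, 1865 and 1159 against 1412 and 1182 with Activin A, and 1406 and 1188 against 1397 and 1471 with NODAL. BAK1 measured 600.3 and 622 against 491 and 522 in E7, 484 and 583 against 496 and 548 with TGFb, 729 and 524 against 596 and 489 with Activin A, and 569 and 555 against 546 and 561 with NODAL. Both were lower with 2DG in E7 without overlap, and overlapped in Activin A and NODAL medium. Their largest changes were -0.38 for BAX (SE 0.17, adjusted p = 0.11) and -0.27 for BAK1 (SE 0.15, adjusted p = 0.18), both in E7. For BAX that value passed without either library of E7 with Activin A (adjusted p 0.0059 and 0.0061). Without replicate 2 of E7 with Activin A, all 10 members passed for the 2DG average, beside 51.2% of all genes in that fit, BAX at -0.16 (adjusted p = 0.016) and BAK1 at -0.19 (0.013) among them. Without replicate 1 of the same group, BAX was at 0.01 (adjusted p = 0.93) and BAK1 at -0.07 (0.37).

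**Figure D2:**
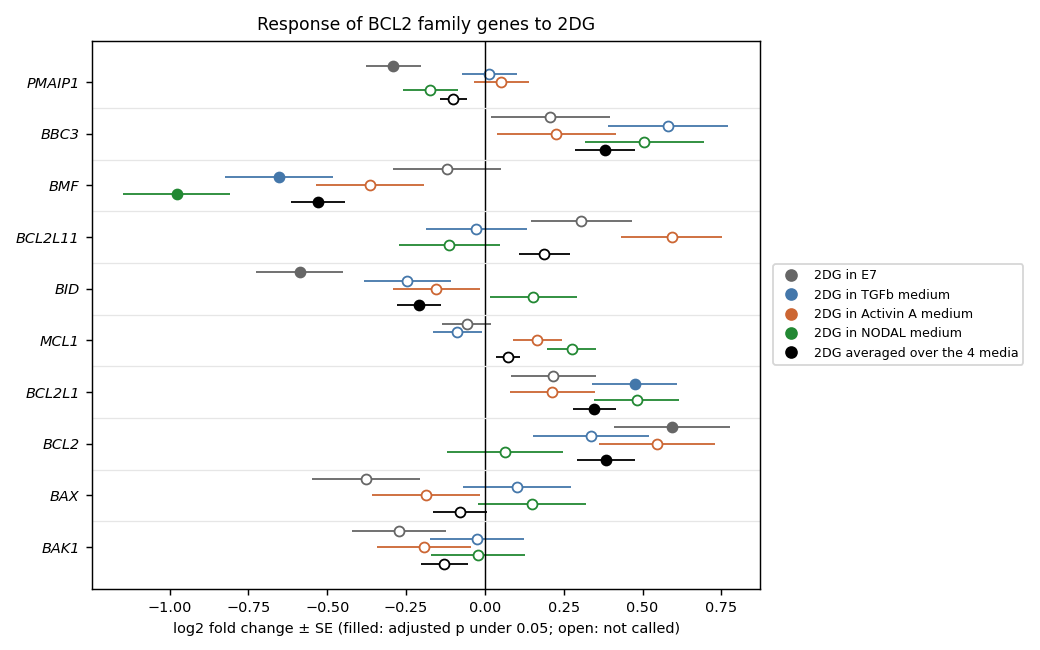
Log2 fold change with 2DG (horizontal axis, error bars 1 SE) of each gene in the 4 media and on average, with filled points for an adjusted p under 0.05. BMF lies left of 0 in every medium, from -0.12 to -0.98, and BCL2L1 right of 0 in every medium, from 0.21 to 0.48.

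Added to E7 without 2DG, Activin A and NODAL each raised BMF and lowered BCL2L1 and MCL1, Activin A also raised PMAIP1 and NODAL also lowered BID, and no member passed with TGFb. These 3 comparisons share the 2 E7 libraries, the values are those given above, and the differences between ligands were not tested. BMF rose by 0.86 with NODAL (SE 0.17, adjusted p = 0.0044) and by 0.62 with Activin A (SE 0.17, adjusted p = 0.034), and its difference with TGFb was 0.36 (adjusted p = 0.23). MCL1 fell by 0.38 with each of NODAL (SE 0.08, adjusted p = 0.0052) and Activin A (SE 0.08, adjusted p = 0.0065) and differed by 0.03 with TGFb (adjusted p = 0.83). Its libraries with Activin A and NODAL all lay below both E7 libraries. Of all genes, 40.8% with Activin A and 66.3% with NODAL did not overlap with E7. BCL2L1 fell by 0.51 with Activin A (SE 0.13, adjusted p = 0.029) and by 0.47 with NODAL (SE 0.13, adjusted p = 0.025), also without overlap, against -0.13 with TGFb (adjusted p = 0.57). PMAIP1 rose by 0.31 with Activin A (SE 0.09, adjusted p = 0.038), and BID fell by 0.45 with NODAL (SE 0.14, adjusted p = 0.034). BBC3, BCL2L11, BCL2, BAX and BAK1 passed with none of the 3 ligands, at adjusted p from 0.17 for BAX with TGFb to 0.98 for BCL2 with Activin A.

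In counts, 2 of 10 members were higher and 2 lower with Activin A, beside 5.28% and 4.74% of all genes, and 1 higher and 3 lower with NODAL, beside 10.6% and 10.9%. The medians were -0.0824 for the members and -0.011 for all genes with Activin A, and -0.195 and 0.0115 with NODAL. With TGFb 0 members and 0% of genes were called, while 2 members and 3771 genes had an unadjusted p under 0.05. In that comparison the change rose with exonic length over all genes (Spearman's rho 0.417). The part of this trend in the members' values was not tested beyond the length correction. There edgeR called 0 members and DESeq2 1, PMAIP1 (-0.35) and BAX (-0.44) passed without either library of E7 with Activin A (adjusted p 0.0036 to 0.0065), and a fit without the 4 Activin A libraries called 5 members and 4404 genes. Summed mesendoderm markers, which both ligands are known to raise, averaged 241 normalised reads in E7, 1700.1 with Activin A and 591 with NODAL. Over all 16 libraries MIXL1 alone reached 1513 normalised reads, and the next highest of these markers, EOMES, 123. The part of the markers in the members' values was not tested.

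Several of these calls ended when 1 library was left out, in part also a library outside the comparison. All 4 Activin A calls ended without replicate 1 of E7, at adjusted p of 0.089 for BMF, 0.24 for PMAIP1, 0.075 for BCL2L1 and 0.053 for MCL1, and in a fit of only the 4 libraries compared (0.37 to 0.59). Without replicate 2 of E7 BMF and BCL2L1 were lost (0.19 and 0.18), and without replicate 2 of Activin A they gave 0.41 (0.12) and -0.32 (0.1). PMAIP1 was lost without replicate 1 of Activin A (0.062) or any library of E7 with 2DG or of the TGFb and NODAL groups with or without 2DG (0.055 to 0.063), and BMF without any library of TGFb, TGFb with 2DG or NODAL (0.052 to 0.053). BAX and BID, not called, passed without replicate 1 of Activin A at -0.46 (0.011) and -0.54 (0.0027), and were at 0.23 (0.23) and -0.04 (0.86) without replicate 2. Of the NODAL calls, BMF held without every library. BCL2L1 was lost without any of the 4 libraries compared (0.055 to 0.16), BID without any of these or either TGFb library (0.22 at most, with values just over the threshold for the TGFb libraries), and MCL1 without replicate 2 of NODAL (0.056). Scaled to equal totals, NODAL gave -0.35 for BCL2L1 (adjusted p = 0.072) and -0.32 for BID (0.09), and with quantile normalization -0.19 for MCL1 (0.08).

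With 2DG present, Activin A raised PMAIP1 and lowered BCL2L1, and neither TGFb nor NODAL gave a call. The Activin A libraries held 6174 and 6501 normalised reads of PMAIP1 against 4005 and 4045 in E7 with 2DG, which is 0.65 (SE 0.09, adjusted p = 0.00026). BCL2L1 held 571 and 705 against 843 and 973, which is -0.51 (SE 0.13, adjusted p = 0.032). Neither pair of groups overlapped, as was so for 44.4% of all genes. The call was 1 member higher and 1 lower, beside 4.27% and 3.25% of all genes. For BCL2L1 it ended without either library of E7 with 2DG (adjusted p 0.061 and 0.27), replicate 1 of Activin A with 2DG (-0.36, 0.29), either TGFb library or either library of NODAL with 2DG (0.051 at most), and in a fit of the 4 libraries compared (0.065), while PMAIP1 held without every library. With TGFb 0 members were called beside 0% of genes, and edgeR and DESeq2 called 0. At an unadjusted p under 0.05 there were 0 members, beside 1.63% of genes. With NODAL 0 members were called beside 0.634% of genes, and again 0 by edgeR and DESeq2. At an unadjusted p under 0.05 there were again 0, beside 16.7% of genes. BMF differed by 0.00 (SE 0.17) with NODAL there. BMF held 326 and 301 in E7 with 2DG and 296 and 334 in NODAL with 2DG.

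**Figure D3:**
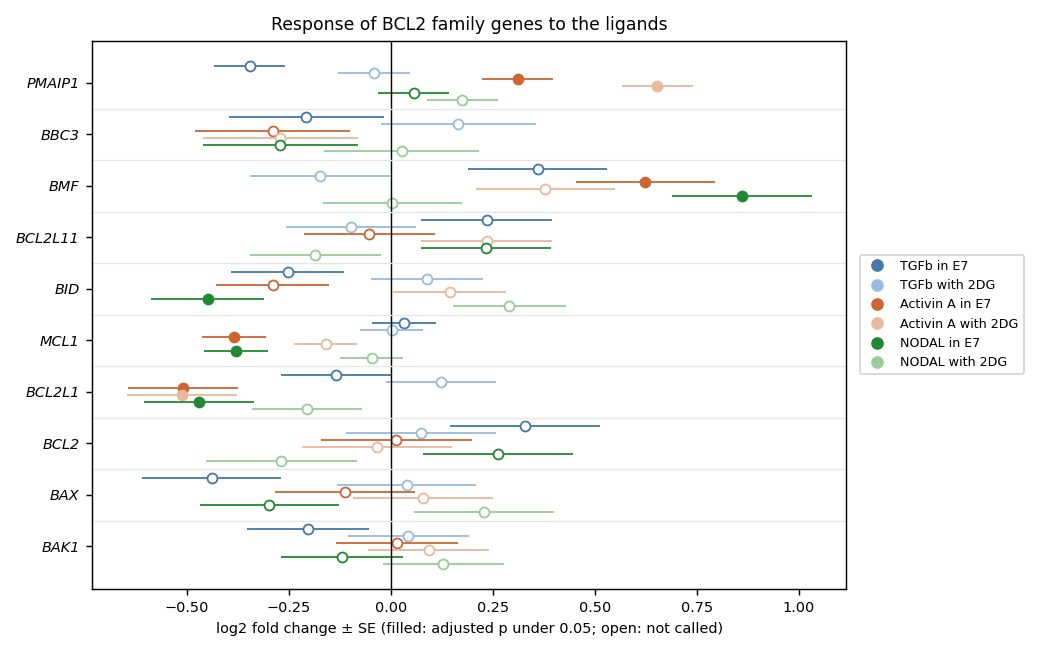
Log2 fold change with each ligand (horizontal axis, error bars 1 SE) of each gene, in E7 without 2DG (dark) and with 2DG (pale), with filled points for an adjusted p under 0.05. PMAIP1 lies right of 0 with Activin A in both settings, at 0.31 and 0.65, and BMF lies at 0.86 with NODAL without 2DG and at 0.00 with it.

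Whether a ligand changed the response to 2DG was tested by an interaction term, which is the log2 change with 2DG in the ligand's medium minus that in E7. It called 0 members for TGFb (beside 0% of genes), 0 for Activin A (0.0419%) and 0 for NODAL (1.87%). At an unadjusted p under 0.05 there were 2, 2 and 4 members, beside 12.1%, 9.87% and 26% of genes. Over all genes these terms ran against exonic length, at Spearman's rho of -0.385, -0.148 and -0.378. The part of this trend in the members' values was not tested beyond the length correction. For NODAL, edgeR called 0 members and DESeq2 3, and for the other 2 ligands both called 0. The NODAL terms nearest the threshold were 0.74 for BID (SE 0.19, adjusted p = 0.054), -0.86 for BMF (SE 0.24, adjusted p = 0.061) and 0.33 for MCL1 (SE 0.11, adjusted p = 0.086). All 3 passed without the 4 Activin A libraries, with adjusted p of 0.00039, 0.00022 and 0.0035, and without either library of E7 with Activin A (0.0012 to 0.011). Left out alone, either library of Activin A with 2DG took BMF past as well (0.037). Those libraries enter these 3 terms only through the shared estimate of the spread and the set of genes tested. For Activin A, without replicate 1 of E7 with Activin A, PMAIP1 (0.43), BAX (0.53) and BID (0.68) passed, at adjusted p of 0.022, 0.037 and 0.012. Without replicate 2 of that group they were at 0.26 (0.27), -0.15 (0.69) and 0.18 (0.59).

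Across the 16 libraries, BMF and BCL2L1 varied most oppositely among the members (Pearson's r -0.93 on log2 values), and BBC3 followed BCL2L1 (0.87). BAX, BAK1 and BID formed a second set (r from 0.7 to 0.85) that ran against BCL2L11 and BCL2 (r from -0.67 to -0.79). These are descriptions over libraries that share treatments. The exonic lengths of BAX, BAK1 and BID are 2587, 2212 and 4446 bases, and those of BCL2L11 and BCL2 are 6658 and 11765. The part of length in these correlations was not tested. BAX, BAK1 and BID, on the one hand, and BCL2L11 and BCL2, on the other, also differed in opposite directions between the 2 replicates of E7 with Activin A, by -0.69, -0.48, -0.50, 0.61 and 0.54 in log2, replicate 2 less replicate 1. Among 10697 genes with a mean of at least 100, those most alike in pattern were EPHB3 (0.949) and CLMN (0.944) for BMF, GMDS (0.926) and CNIH4 (0.925) for BBC3, and BAMBI (0.95) and YPEL5 (0.94) for PMAIP1. They were BFAR (0.96) and SLC27A2 (0.949) for BCL2L1, MCU (0.945) and CEBPZ (0.924) for MCL1, GAB2 (0.966) and NEO1 (0.964) for BCL2, and SETD7 (0.935) and ARHGEF7 (0.907) for BCL2L11. For BAX they were TMEM14C (0.972) and RPS15 (0.97), for BAK1 OXLD1 (0.924) and UXT (0.919), and for BID IMP3 (0.957) and MRPS14 (0.955).

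Of the other family genes, HRK, a BH3-only gene best known from neurons, had a larger log2 change with 2DG than each of the 10. It measured 131 and 129.9 normalised reads in E7 against 618 and 652 with 2DG, 127 and 161 against 641 and 720.1 with TGFb, 82.5 and 90.4 against 242 and 484 with Activin A, and 106 and 104 against 419 and 407 with NODAL. Every 2DG library was above every library without 2DG. The log2 rise was 2.11 on average (SE 0.12, adjusted p = 8.3e-08), and 2.27, 2.24, 1.97 and 1.97 in the 4 media in that order. All 4 were called, the one in Activin A medium not in a fit of its 4 libraries alone (adjusted p = 0.29). Of 13 further family genes listed, 10 were tested, of which HRK rose and 4 fell, beside 19.2% and 19.4% of all genes. The median was -0.225, against -0.000609 over all genes. BNIP3L, a mitophagy receptor, fell by 0.59 (SE 0.06, adjusted p = 1.6e-05) and BAD, a BH3-only protein held inactive by survival kinases, by 0.53 (SE 0.13, adjusted p = 0.0068). In single media BNIP3L was called in each and BAD in none.

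The same background applies to the lists that follow. Downstream, 10 of 19 tested genes of the apoptosome, caspases and caspase inhibitors fell with 2DG and 0 rose (median -0.186). Within single media 7 fell in E7, where 1 rose, 2 in TGFb medium, 1 in NODAL medium and 0 in Activin A medium. Of all genes, 14.8%, 4.37% and 2.76% were called lower in E7, TGFb and NODAL medium. In Activin A medium 1.7% were called in either direction. On average CASP8, the initiator that cuts BID, fell by 0.56 (SE 0.13, adjusted p = 0.0047), and CASP9, the initiator activated by the apoptosome, by 0.43 (SE 0.10, adjusted p = 0.0053). In single media CASP8 was called in E7 only (-0.88, adjusted p = 0.026), and CASP9 in none. The list mixes genes that promote and genes that block caspases, and BIRC5, a caspase inhibitor family member needed for cell division, was among those that fell. In the death receptor pathway 4 of 7 tested genes rose and 0 fell (median 0.207). They included the TNF receptor TNFRSF1A (0.54, SE 0.05, adjusted p = 5.7e-06), its adaptor kinase RIPK1 (0.41, SE 0.08, adjusted p = 0.0011) and CFLAR, a caspase 8 inhibitor (0.36, SE 0.08, adjusted p = 0.0034). With the length correction CFLAR was at 0.16 (adjusted p = 0.11). In single media TNFRSF1A was called in all but Activin A medium, and RIPK1 in none. CFLAR was called in E7 only (0.72, adjusted p = 0.0058) and was at -0.03 in NODAL medium.

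**Figure D4:**
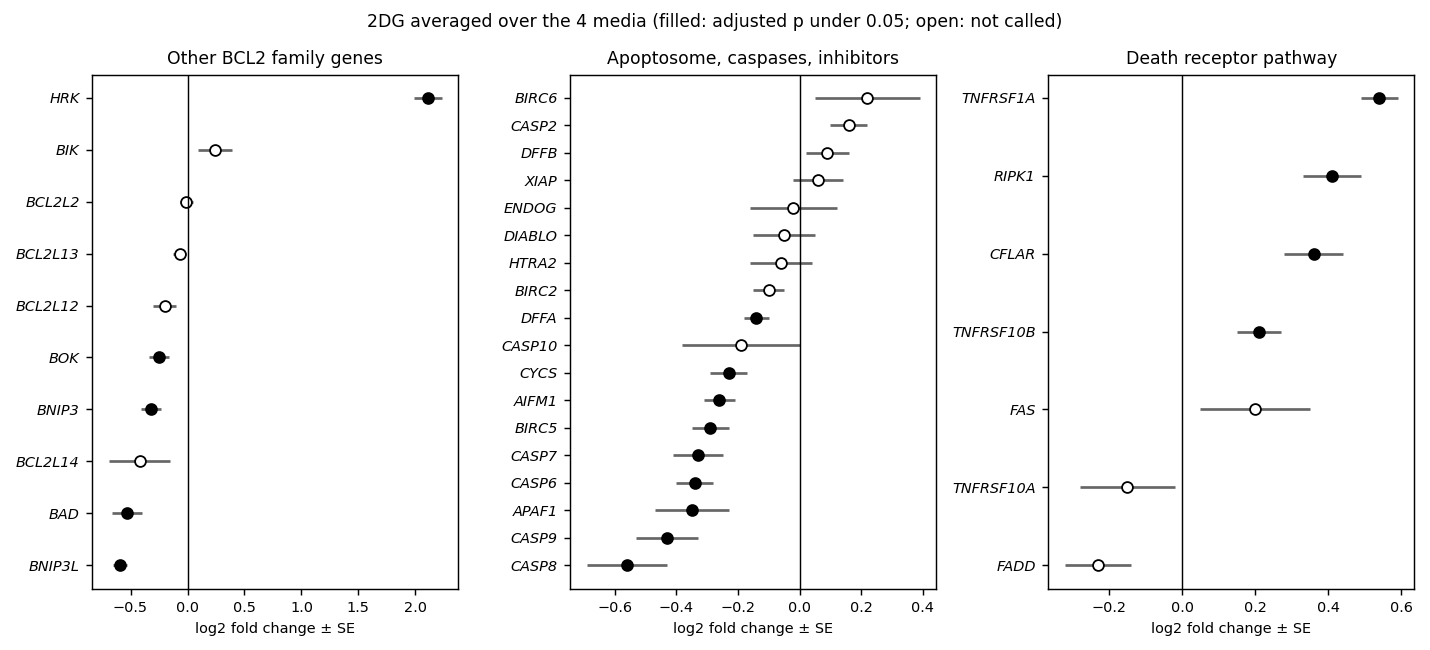
Log2 fold change with 2DG averaged over the 4 media (horizontal axis, error bars 1 SE) of other family genes, of most genes of the apoptosome, caspases and their inhibitors, and of the death receptor pathway, with filled points for an adjusted p under 0.05. HRK lies at 2.11, the filled points of the middle panel all lie to the left of 0, and 4 of the right panel are filled to its right.

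In a list of 15 transcription factors and regulators known to act on family genes, 10 rose with 2DG and 1 fell (median 0.27). The stress factors led, with ATF5 at 3.33 (SE 0.16, adjusted p = 2.8e-08), DDIT3, which encodes CHOP, at 3.26 (SE 0.21, adjusted p = 4e-07) and TRIB3, a pseudokinase that is their target, at 2.34 (SE 0.17, adjusted p = 7.6e-07). DDIT3 went from 32.5 and 44.7 normalised reads in E7 to 321 and 428, and from 13.7 and 21.7 with NODAL to 145 and 132. Of 12 partners of the family's proteins 3 rose and 1 fell (median 0.048). The MCL1 ubiquitin ligase HUWE1 rose by 0.51 (SE 0.16, adjusted p = 0.025), the MCL1 deubiquitinase USP9X rose by 0.42 (SE 0.09, adjusted p = 0.0031) and the mitochondrial channel VDAC1 fell by 0.41 (SE 0.05, adjusted p = 3e-05). In single media HUWE1 and USP9X were called in E7 only, at 1.44 and 0.85, and were at -0.17 and 0.08 in NODAL medium. VDAC1 was called in E7 and TGFb medium. HUWE1, a long transcript, held 4072 and 2634 normalised reads in the E7 replicates and 3071 and 8396 in those with Activin A. Its call ended with DESeq2 (adjusted p = 0.053) and without replicate 2 of E7, replicate 1 of E7 with 2DG, replicate 1 of TGFb, replicate 2 of Activin A with 2DG or replicate 1 of NODAL (0.052 to 0.071).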

How the data were processed

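The deposited values are a signal: counts of reads that the authors scaled by a size factor for each library, as the values show. DESeq2 1.26.0, featureCounts 1.5.3, STAR, Trimmomatic 0.36 and the hg38 build are listed, with no role, per the submitters' processing notes. The annotation and strand setting are not given in the sources used here. Whole reads were recovered for 100% of the values within a tolerance of 1e-06. Totals per library, 14600479 to 17630329 reads, leave a counting error that is largest for BCL2, at 114 to 221 reads a library.

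Genes reaching 10 normalised reads in 2 or more libraries, 16714 of 17738, were fitted with limma 3.58.1 (R 4.3.3, with trend) on log2(value + 1), with 8 group means over 16 libraries. Two-sided p-values were adjusted by Benjamini-Hochberg within each of 14 contrasts and called under 0.05. The fit was checked on simulated counts with the same spread for every gene, changes in E7 with 2DG only and no length trend. That check does not cover the unequal replicates seen here. Group sizes of 2 are samples the labels call replicates without saying that they were separate cultures, so p-values measure only the spread between these samples. Exonic lengths came from GENCODE 29, matched to 17317 symbols, and upstream sequences from RefSeq.

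The members and lists were chosen with earlier results of these data known. Besides the members, the text names up to 3 called genes per list with the largest change for 2DG averaged over the media, and the 2 genes most alike to each member. BIRC5 and the partner genes of overlaps are named outside that rule. Some genes and lists that met it are not reported here. Alternatives were TMM, equal totals, quantile normalization, a loess on transcript length, pseudocounts of 0.5 and 8, no filter, a mean of at least 50, a robust fit, only the libraries of the contrast, no Activin A libraries, a replicate block, edgeR 4.0.16 and DESeq2 1.42.0 on recovered reads, the longest transcript as length, and each library left out in turn. A group left with 1 library was assumed to vary like the others. An average of 2DG over the 3 media without Activin A was added after seeing the data.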

Additional observations from a re-analysis of the deposited data

How the results depend on the processing

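Of 21 calls on members, 6 held under every alternative and without every library: BMF for NODAL in E7, BMF, BBC3, BCL2 and BCL2L1 for 2DG averaged, and PMAIP1 for Activin A with 2DG. No called value changed sign. Of 119 values not called, 71 never passed and 37 changed sign somewhere. For the counts that follow in this paragraph, the share of all genes called in the same fit stands beside each. In a fit of only the libraries compared, the members called were 6 for 2DG in TGFb medium (40.7% of genes), 5 for 2DG in NODAL medium (30.6%), 2 for TGFb in E7 (15.2%), 0 for Activin A in E7 (0.51%), 1 for Activin A with 2DG (6%), 3 for NODAL with 2DG (21.9%), 2 for the TGFb interaction (9.53%) and 5 for the NODAL interaction (24.2%). Without the 4 Activin A libraries they were 6 for 2DG in E7 (46.0%), 4 for 2DG in NODAL medium (20.6%), 5 for TGFb in E7 (26.7%), 1 for NODAL with 2DG (17.9%), 3 for the TGFb interaction (15%) and 5 for the NODAL interaction (29.1%). 2DG in NODAL medium gave 2 with quantile normalization (6.83%), a pseudocount of 8 (6.19%), the robust fit (5.93%) or edgeR (6.23%), and 3 with the length loess (10.2%), a mean of at least 50 (8.43%) or DESeq2 (7.35%). 2DG in Activin A medium gave 1 with the length loess (3.34%) and 1 with DESeq2 (3.63%), TGFb in E7 gave 1 with DESeq2 (1.76%), and NODAL in E7 gave 2 with equal totals (21.5%). The NODAL interaction gave 2 with the length loess (7.86%), 1 with a mean of at least 50 (7%) and 3 with DESeq2 (10.4%). Averaged over the 3 media without Activin A, a setting added after seeing the data, PMAIP1 passed at -0.15 (adjusted p = 0.0028). The share of all genes called in that fit is not given here, so this pass is not read as a result about the members. The cause was not tested beyond the fewer libraries or genes of each fit.

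Leaving out each library in turn left a group with 1 library. The number of members called then varied in all comparisons except TGFb with 2DG and NODAL with 2DG. The share of all genes called differed between fits as well, so the number is not read as a result about the members. BMF for Activin A with 2DG passed without replicate 2 of that group (0.67, adjusted p = 0.024) and was at 0.09 (0.93) without replicate 1, and BAX passed for NODAL in E7 without either library of E7 with Activin A (-0.30, adjusted p up to 0.03). The 10 (51.2% of genes), and the 6 for Activin A medium (33.4%), came without replicate 2 of E7 with Activin A, and the 3 for its interaction without replicate 1.

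With the replicate number as a replicate block, 2DG in TGFb medium lost BCL2L1 (adjusted p = 0.056), and Activin A in E7 lost PMAIP1 (0.053). The block changed no other call. Replicate differences correlated above 0.1 in 3 of 28 pairs of groups, over a range of -0.393 to 0.242. They carry length trends of opposite sign in E7 (rho -0.347) and E7 with Activin A (0.462). The check therefore cannot decide whether the numbers pair the libraries.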
